A study of Mus musculus with 6 samples.

Results

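The stefin and cystatin protease inhibitors described here in mouse epidermis are the stefin A genes Stfa1, Stfa2, Stfa2l1, Stfa3, BC100530 and BC117090, and cystatin 6 (Cst6). They were picked by symbol, 7 of the 30386 genes in the deposited table, and Stfa3 and BC100530 were picked for their very high level, so the levels of these 2 genes are a description and carry no test. Transcript 3′ ends were sequenced (3′ digital gene expression) in back skin epidermis of E18.5 embryos, in 3 libraries of the genotype p63alphaKO and 3 libraries of wild type (WT). Per the labels, Dispase was used to lift the epidermis off the dermis, and Accutase to dissociate it. The title places the comparison in work on the isoforms of p63, the transcription factor of stratified epithelia encoded by Trp63; the allele's construction, the strain and the embryos' sex are not stated in what was used here. Nothing there says that the libraries of a group came from separate embryos, so p-values measure the spread between these libraries only. The libraries held 3539604, 3431580 and 3350442 reads in p63alphaKO replicates 1, 2 and 3, against 2564407, 4474764 and 3174444 reads in WT replicates 1, 2 and 3. Levels are in CPM, reads scaled to a common library total; because reads come from transcript ends, CPM was not divided by transcript length.

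Stefins are small inhibitors that act inside the cell, and cystatin 6 is secreted. Both families block papain-like cathepsins by wedging a hairpin loop with the amino acid pattern Gln-X-Val-X-Gly into the active site of the protease. Cystatin 6 also blocks legumain through a separate surface, and mice that lack it have a severe neonatal defect of cornification. In human skin, stefin A (CSTA) is made in the upper layers and loss of it causes an exfoliative ichthyosis. The mouse genome carries a cluster of stefin A copies instead.

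The stretches of coding sequence around the inhibitory loop show how alike the copies are. Each line gives 75 bases of the coding strand from the GENCODE mouse release 21 transcripts, on chromosome 16 for the stefins and chromosome 19 for Cst6, and the capitals mark the 15 bases that code for the loop.
BC100530: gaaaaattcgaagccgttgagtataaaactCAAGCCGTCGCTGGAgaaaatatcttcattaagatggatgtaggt
BC117090: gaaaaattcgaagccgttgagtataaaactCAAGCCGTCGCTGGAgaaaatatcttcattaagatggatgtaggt
Stfa1: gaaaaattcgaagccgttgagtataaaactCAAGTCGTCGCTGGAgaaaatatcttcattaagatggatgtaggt
Stfa3: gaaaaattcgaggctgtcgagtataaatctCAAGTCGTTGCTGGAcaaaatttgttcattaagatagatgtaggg
Stfa2: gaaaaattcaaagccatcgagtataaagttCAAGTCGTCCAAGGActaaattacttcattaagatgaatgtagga
Stfa2l1: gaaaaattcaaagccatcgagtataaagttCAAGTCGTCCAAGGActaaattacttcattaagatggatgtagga
Cst6: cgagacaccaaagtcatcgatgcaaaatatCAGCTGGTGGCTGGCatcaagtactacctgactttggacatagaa

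BC100530 and BC117090 had the same 75 bases. Against Stfa3, the window of Stfa1 differed at 10 bases, those of BC100530 and BC117090 at 11, that of Stfa2l1 at 15 and that of Stfa2 at 16. Cst6 differed from Stfa3 at 38 of the 75 bases, 5 of them in the loop. Over whole coding sequences, BC100530 was 97.9% identical to Stfa1 and 96.2% identical to BC117090, and Stfa2 was 96.4% identical to Stfa2l1. Stfa3 had no such near copy, with 81.6% identity to Stfa2l1 and 80.9% to Stfa2. The coding sequences were 288 bases long in BC117090, 291 in BC100530 and Stfa1, 309 in Stfa2, Stfa2l1 and Stfa3, and 447 in Cst6.

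The 6 stefins lie within 335447 bases of chromosome 16 (mm10, chr16:36119946-36455392), a locus with 32 annotated genes, of which 10 are protein coding and are in the table. From the low to the high coordinate, Stfa2l1 (ENSMUSG00000059657, chr16:36156811-36161953) and Stfa1 (ENSMUSG00000071562, chr16:36276951-36285373) are on the plus strand. BC117090 (ENSMUSG00000079594, chr16:36321665-36334332), BC100530 (ENSMUSG00000071561, chr16:36359382-36367748), Stfa2 (ENSMUSG00000022902, chr16:36403992-36408457) and Stfa3 (ENSMUSG00000054905, chr16:36450537-36455392) follow on the minus strand. Cst6 (ENSMUSG00000024846) lies alone at chr19:5344705-5349574 on the minus strand. Each of the 7 genes has 3 coding-transcript exons in the annotation used. An exon of BC100530 overlaps the antisense gene Gm15845, which had 1.41, 5.82 and 3.58 CPM in p63alphaKO replicates 1, 2 and 3, against 0, 6.70 and 3.15 CPM in WT; no source used here says whether counting used the strand.

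**Figure D1:**
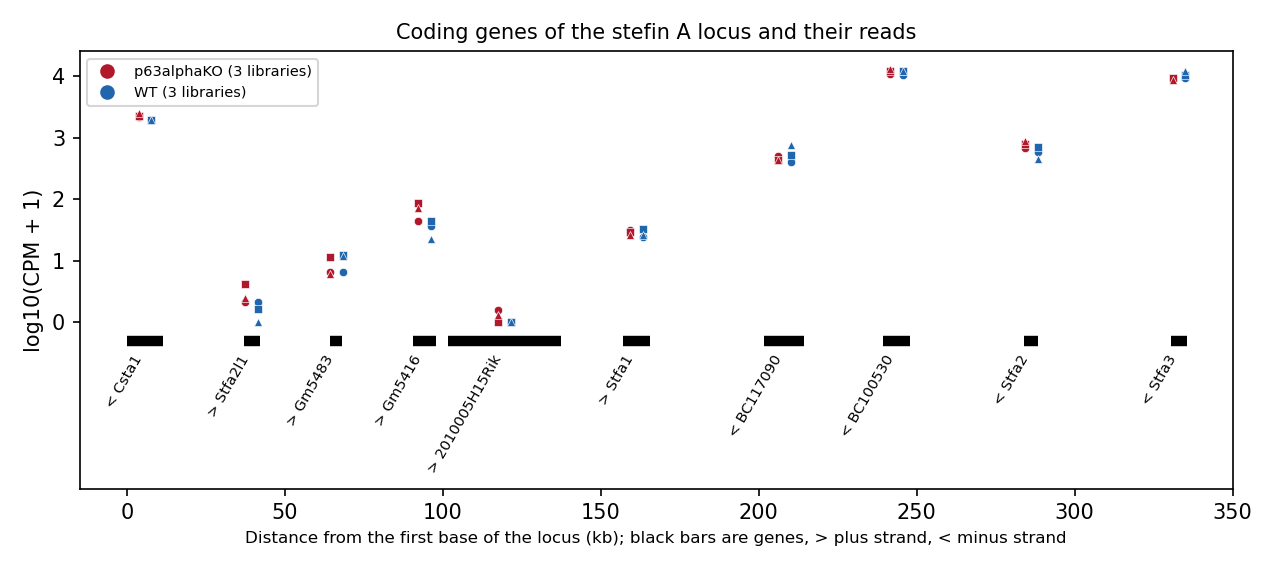
Levels of the 10 coding genes of the stefin A locus on chromosome 16, by library. The x axis is the distance from the first base of the locus in kb, the y axis log10(CPM + 1); black bars are the genes (> plus strand, < minus strand), and circles, squares and triangles are replicates 1, 2 and 3 of p63alphaKO (red) and WT (blue). BC100530 and Stfa3, at the right, lie near 4, while Stfa2l1 and 2010005H15Rik lie near 0, in both genotypes.

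The cluster's output was very unequal, and the order of its genes was alike in both genotypes. BC100530 had the highest level, with 10726, 12109.6 and 12865 CPM in p63alphaKO replicates 1, 2 and 3, against 10303, 12195 and 12125 CPM in WT replicates 1, 2 and 3. Its mean over the 6 libraries ranked 7 among the 16363 detected genes. Stfa3 came next in rank, with 8959, 9201 and 8740.3 CPM in p63alphaKO and 9304, 10336 and 12010.1 CPM in WT. BC100530 was above Stfa3 in each of the 6 libraries, but their ranges overlapped across libraries.

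Among the 7 genes, Stfa2 and BC117090 formed a middle tier, more than 10 times below the top pair. Csta1, a stefin A copy of the locus that is not among the 7, had a level between these tiers, given below. Stfa2 had 667, 799 and 869.7 CPM in p63alphaKO replicates 1, 2 and 3, against 586, 714 and 457 CPM in WT. BC117090 had 499, 436 and 431 CPM in p63alphaKO, against 404, 519 and 761 CPM in WT. Stfa2 was the higher of this pair in all libraries except WT replicate 3, so their order does not stand out from the spread between libraries. Their ranks were 187 and 238.

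Cst6, the secreted inhibitor, had 134, 111 and 109 CPM in p63alphaKO replicates 1, 2 and 3, against 202, 115 and 88.2 CPM in WT. WT replicate 1 was the highest library and WT replicate 3 the lowest, on either side of all 3 p63alphaKO libraries. Stfa1 was lower still, with 30.5, 28.0 and 25.7 CPM (108, 96 and 86 reads) in p63alphaKO and 23.8, 31.7 and 25.5 CPM (61, 142 and 81 reads) in WT. Stfa2l1 was close to the detection limit, with 4, 11 and 5 reads in p63alphaKO (1.13, 3.2 and 1.49 CPM) and 3, 3 and 0 reads in WT (1.17, 0.67 and 0 CPM). A count of 0 in WT replicate 3 allows up to 3 reads, or 0.944 CPM, for counting error alone. No tier overlapped the next in any library.

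**Figure D2:**
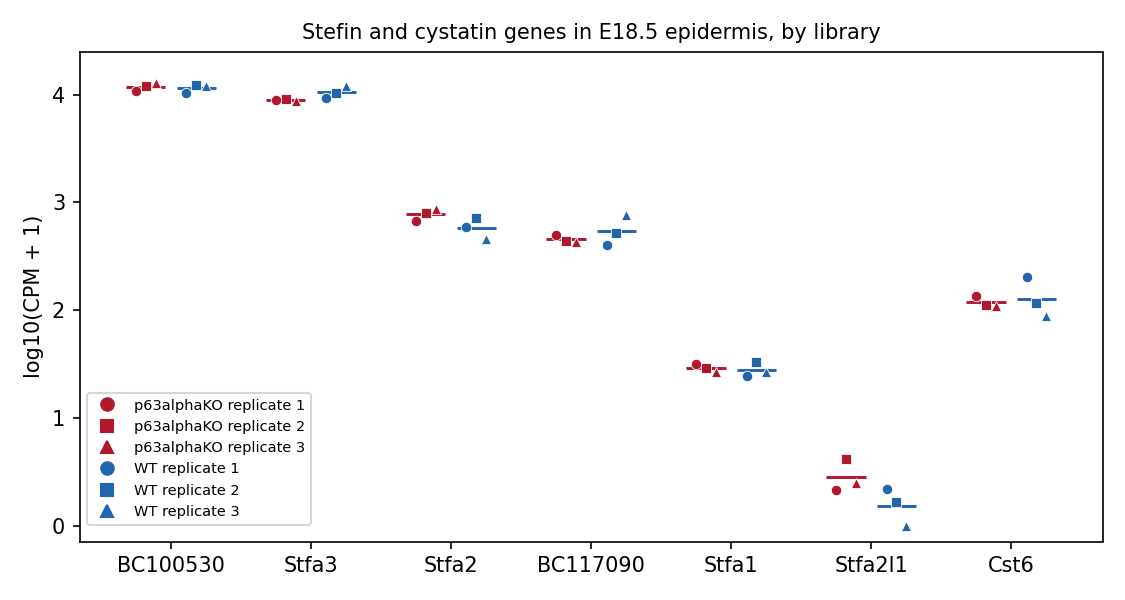
Levels of the 6 stefins and Cst6 by library, as log10(CPM + 1). Circles, squares and triangles are replicates 1, 2 and 3, in red for p63alphaKO and blue for WT, and the bars are the means of the plotted values; points of both genotypes lie side by side at each gene, from near 4 for BC100530 and Stfa3 to near 0 for Stfa2l1.

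The 2 most abundant stefins varied less from library to library than Stfa2, BC117090 and Cst6, and Stfa3 was close to the median of genes at its level. The highest library of BC100530 was 1.25-fold above its lowest, and that of Stfa3 was 1.37-fold above its lowest. Among the 110 genes that averaged 1000 CPM or more the median of this range was 1.4-fold, and 27 of them had a narrower range than BC100530 and 51 a narrower range than Stfa3. BC117090 ranged 1.88-fold, Stfa2 1.90-fold and Cst6 2.28-fold, while Stfa1, at a far lower level, kept between 23.8 and 31.7 CPM.

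Near-identical copies bear on how far these levels can be told apart, since 3′ reads fall where the copies are alike. Counted over all of the last 200 transcript bases, BC100530 was 98.5% identical to Stfa1 and 87% to BC117090, and Stfa2 73.5% to Stfa2l1. The annotated ends are offset: BC100530 has 78 bases after the stop codon and BC117090 57, Stfa2 35 and Stfa2l1 81. Within the aligned part, 174 of 179 bases were identical for BC100530 and BC117090, and 147 of 154 for Stfa2 and Stfa2l1. Among 75-base windows in the last 300 bases, 52.2% of those of BC100530, 28.3% of those of BC117090 and 23.9% of those of Stfa1 occurred unchanged in the transcript of another gene. The share was 10.2% for Stfa2, 9.73% for Stfa2l1, and 0% for Stfa3 and Cst6. No source used here gives the read length or the treatment of reads that match several places. The split between BC100530, BC117090 and Stfa1, and between Stfa2 and Stfa2l1, is therefore uncertain. For Stfa3 and Cst6 no shared window was found in those 300 bases. The Cst6 transcript used has 3261 bases after the stop codon, and whether its reads come from that far end was not tested. As counted, the levels of BC100530 and Stfa1 were far apart in every library: BC100530 had 352, 433 and 502 times the CPM of Stfa1 in p63alphaKO, and 433, 385 and 476 times in WT.

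The promoters of these near copies are also near copies, and are shown because the paired genes, as counted, differ so widely in level. Each sequence runs from 250 bases before to 50 bases after the RefSeq gene start on GRCm38.p6 (mm10), 5′ to 3′ on the gene's own strand. RefSeq promoters were matched for 5 of the 7 genes. BC100530 is listed there as Cstdc5, matched by a shared gene boundary. The RefSeq starts of BC100530, Stfa1 and Stfa2 differ from the annotated starts given above. Those annotated starts (chr16:36367748, chr16:36276951 and chr16:36408457) lie inside the printed stretches. Part of each of these 3 stretches is therefore within the annotated gene. Capitals mark bases that differ from the paired gene, or are missing from it, within the aligned stretch. BC100530 lies at chr16:36367521-36367820 (minus strand), Stfa1 at chr16:36276898-36277197 (plus strand), Stfa2 at chr16:36408314-36408613 (minus strand) and Stfa2l1 at chr16:36156561-36156860 (plus strand).
BC100530 promoter: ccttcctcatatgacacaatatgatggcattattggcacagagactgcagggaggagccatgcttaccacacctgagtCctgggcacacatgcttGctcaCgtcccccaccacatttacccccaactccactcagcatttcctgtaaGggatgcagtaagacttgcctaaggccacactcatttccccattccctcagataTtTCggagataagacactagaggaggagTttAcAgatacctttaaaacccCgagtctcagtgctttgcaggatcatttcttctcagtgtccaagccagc
Stfa1 promoter: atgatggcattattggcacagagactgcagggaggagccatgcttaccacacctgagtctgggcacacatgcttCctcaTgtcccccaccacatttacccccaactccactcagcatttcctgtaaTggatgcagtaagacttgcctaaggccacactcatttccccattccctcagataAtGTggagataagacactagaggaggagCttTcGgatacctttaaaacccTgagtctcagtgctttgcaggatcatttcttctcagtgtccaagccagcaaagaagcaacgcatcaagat
Stfa2 promoter: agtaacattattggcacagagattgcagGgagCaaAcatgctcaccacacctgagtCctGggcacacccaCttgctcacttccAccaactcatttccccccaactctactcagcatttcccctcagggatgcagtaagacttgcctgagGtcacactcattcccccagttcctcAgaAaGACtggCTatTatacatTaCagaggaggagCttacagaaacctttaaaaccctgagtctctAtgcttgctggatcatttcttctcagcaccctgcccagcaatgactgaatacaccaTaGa
Stfa2l1 promoter: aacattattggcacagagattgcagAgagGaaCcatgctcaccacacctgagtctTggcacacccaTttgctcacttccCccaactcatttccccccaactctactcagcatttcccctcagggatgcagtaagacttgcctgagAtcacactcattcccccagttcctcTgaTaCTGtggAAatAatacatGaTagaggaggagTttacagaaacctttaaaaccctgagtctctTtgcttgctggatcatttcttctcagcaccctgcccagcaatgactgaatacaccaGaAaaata

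The aligned promoters of BC100530 and Stfa1 differed at 10 bases, and those of Stfa2 and Stfa2l1 at 21. Over the full 300 bases the identity was 89.7% for the first pair and 91.7% for the second, against 76.7% to 82.3% for all other pairs among the 5 promoters. All 5, Stfa3 included, share the 17 bases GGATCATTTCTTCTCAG near the start. Both strands were searched for 5 motifs. The AP-1 motif TGANTCA, found in 7.81% of 32851 RefSeq promoters, had a match in Stfa3, which starts at base 30 after the gene start, and none in the other 4. The C/EBP motif TTGCNNAA, found in 10.8% of promoters, had a match in BC100530 and in Stfa1. The core motif of p53-family sites, found in 70.2% of promoters, had matches in BC100530 and Stfa1 and none in Stfa2, Stfa2l1 and Stfa3. No promoter of the 5 held the TATA box letters TATAAA (13.6% of promoters) or the KLF letters GGGTGG (31.5%). The C/EBP and p53-family matches in BC100530 and Stfa1 lie downstream of the annotated starts of these genes. All of these are matches of letters, not measured binding sites.

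The comparison of genotypes asked whether p63alphaKO epidermis made more or less of each inhibitor. None of the 6 genes that could be tested was called, and the estimates lay on either side of 0. The test was limma-trend on log2(CPM + 1) for the 7464 genes that averaged 10 CPM or more, and a call required a Benjamini-Hochberg adjusted p below 0.05. Over all tested genes 123 were called, which is 1.65%, with 35 higher (0.469%) and 88 lower (1.18%). On reads recovered from the CPM values, edgeR called 1.1% of genes and DESeq2 called 4.25%, 152 higher and 165 lower. Of the 6 genes, 0 were called by limma, by edgeR's quasi-likelihood test or by DESeq2, and 1 had an unadjusted p under 0.05, against 15.6% of all tested genes. Of the estimates, 3 were positive and 3 negative, with a median of -0.03, against a median of -0.09 over all tested genes. Stfa2l1 was below the level filter; fitted without a filter its log2 fold change was 0.87 with a limma adjusted p of 0.528, a value that depends on the pseudocount. In bulk libraries, fewer cells of a type and less RNA per cell cannot be told apart.

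Stfa2 had the largest estimate and was the gene with an unadjusted p under 0.05. It averaged 779 ± 103 CPM in p63alphaKO and 586 ± 129 CPM in WT (SD, n = 3 each). Its log2 fold change was 0.43 (SE 0.18), a fold of 1.34 with a 95% interval of 1.03 to 1.76, at a limma adjusted p of 0.270. The groups overlapped, since p63alphaKO replicate 1 was below WT replicate 2, and without WT replicate 3 the estimate was 0.26.

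Stfa3 was lower in each p63alphaKO library than in each WT library, the only one of the 6 tested genes without overlap between groups, where 21% of all tested genes had none (7.6% higher and 13.4% lower in p63alphaKO). It averaged 8967 ± 231 CPM in p63alphaKO and 10550.1 ± 1366 CPM in WT (SD, n = 3 each). The nearest libraries were 9201 CPM in p63alphaKO replicate 2 and 9304 CPM in WT replicate 1. The log2 fold change was -0.23 (SE 0.15), a fold of 0.855 with a 95% interval of 0.681 to 1.07, and did not pass the test (limma adjusted p = 0.520).

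BC100530 averaged 11900.4 ± 1085 CPM in p63alphaKO and 11541 ± 1073 CPM in WT (SD, n = 3 each). Its log2 fold change was 0.04 (SE 0.15, limma adjusted p = 0.931), and the 95% interval of the fold ran from 0.821 to 1.30. Changes within that interval, in either direction, are not separable from 0 with these libraries. BC117090 averaged 455 ± 37.9 CPM in p63alphaKO and 561 ± 182 CPM in WT, with a fold of 0.838 and an interval of 0.620 to 1.13. Its log2 fold change of -0.26 was -0.47 without WT replicate 1 and -0.01 without WT replicate 3, and was not called in either case.

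Cst6 averaged 118 ± 13.5 CPM in p63alphaKO and 135 ± 59.7 CPM in WT (SD, n = 3 each). Its fold was 0.926 with an interval of 0.636 to 1.35 (limma adjusted p = 0.885). WT replicate 1 decided the direction, since the log2 fold change was 0.22 without it and -0.11 with it. Stfa1 averaged 28.0 ± 2.42 CPM in p63alphaKO and 27.0 ± 4.18 CPM in WT, a log2 fold change of 0.06 (SE 0.25).

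**Figure D3:**
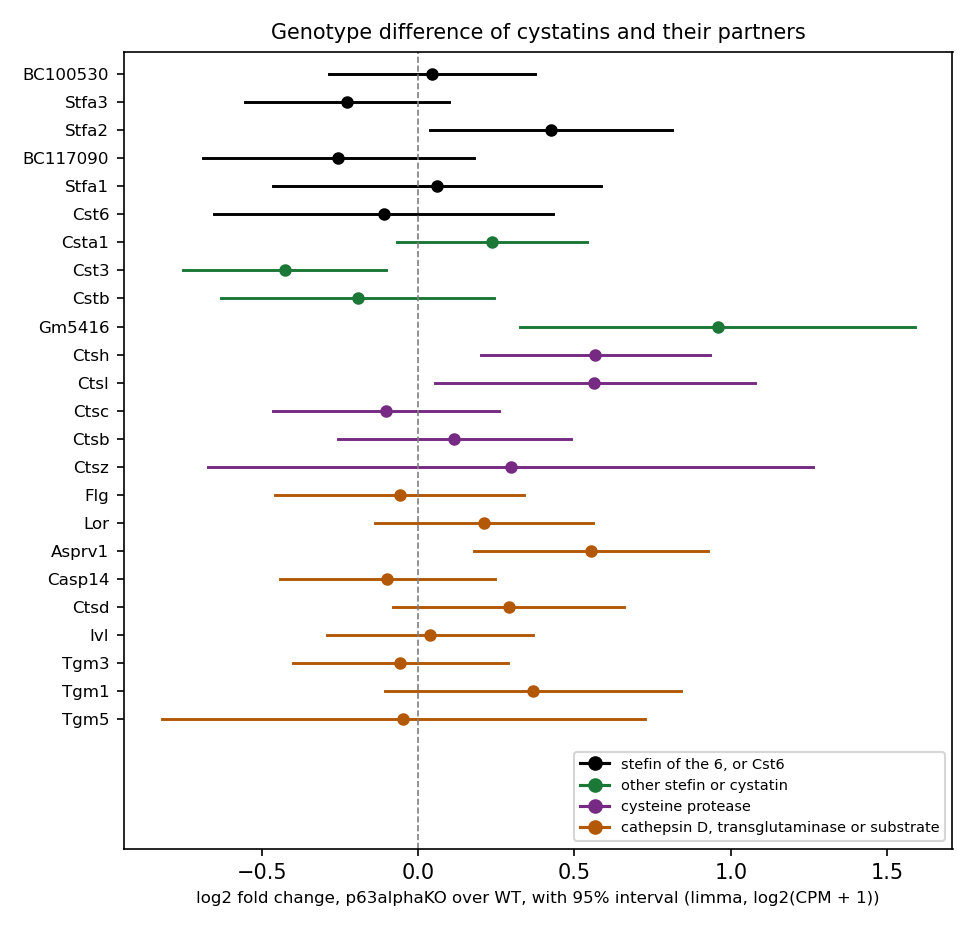
Log2 fold changes, p63alphaKO over WT, with 95% intervals from limma on log2(CPM + 1), for the tested stefins and Cst6 (black), other stefins and cystatins (green), cysteine proteases (purple), and cathepsin D, transglutaminases and their substrates (orange). Each row is a gene and the dashed line marks no difference; intervals that do not reach the line, such as that of Gm5416, are not adjusted for the number of genes tested, and no gene shown was called.

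Summed over the 6 stefins, the cluster's output was 20883, 22577 and 22934 CPM in p63alphaKO replicates 1, 2 and 3, against 20622, 23796 and 25378 CPM in WT. These are 2.21% ± 0.110 of all reads in p63alphaKO and 2.33% ± 0.242 in WT (SD, n = 3 each), and the groups overlapped. The log2 ratio of the mean sums was -0.07, and 0.02 with TMM scaling, so even the sign depends on the scaling. A sum over the genes was not tested. Over all 10 coding genes of the locus, Csta1 included, the mean sum was 24510 CPM in p63alphaKO and 25261 CPM in WT, and the groups overlapped.

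Within that sum the shares of 3 of the 6 stefins did not overlap between genotypes, and those of BC117090, Stfa1 and Stfa2l1 did. In CPM, 21% of all tested genes did not overlap, and no such background was computed for shares or ratios. BC100530 made up 51.4%, 53.6% and 56.1% of the stefin reads in p63alphaKO replicates 1, 2 and 3, against 49.96%, 51.3% and 47.8% in WT, all p63alphaKO values being above all WT values, the nearest pair by 51.36% against 51.25%. Stfa3 made up 42.9%, 40.8% and 38.1% in p63alphaKO and 45.1%, 43.4% and 47.3% in WT, all p63alphaKO values being below. Stfa2 made up 3.19%, 3.54% and 3.79% in p63alphaKO and 2.84%, 3.002% and 1.80% in WT, again without overlap. Shares of a sum are bound to each other, and such ratios do not depend on library scaling. BC100530 and Stfa3 together made up a mean of 94.3% of the sum in p63alphaKO and 94.95% in WT. Their shares therefore mirror each other and are not separate observations. With 3 libraries against 3 an exact permutation test cannot go below p = 0.1, so none was used.

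Some ratios of single genes did not overlap between genotypes either. BC100530 had 1.20, 1.32 and 1.47 times the CPM of Stfa3 in p63alphaKO, against 1.11, 1.18 and 1.01 times in WT. For every 100 reads of Stfa3 there were 7.44, 8.69 and 9.95 reads of Stfa2 in p63alphaKO, against 6.30, 6.91 and 3.8 in WT. Both ratios share Stfa3 as the denominator, so they are not separate observations. Other ratios overlapped: Stfa2 had 1.34, 1.83 and 2.02 times the CPM of BC117090 in p63alphaKO, against 1.45, 1.38 and 0.601 times in WT, and the ratios of BC117090 to Stfa3 and to BC100530 and of Stfa1 to BC100530 overlapped too. The shares of BC117090 overlapped between genotypes, at 1.88% to 2.39% in p63alphaKO and 1.96% to 2.997% in WT. Stfa1 made up 0.112% to 0.146% in p63alphaKO and 0.101% to 0.133% in WT.

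**Figure D4:**
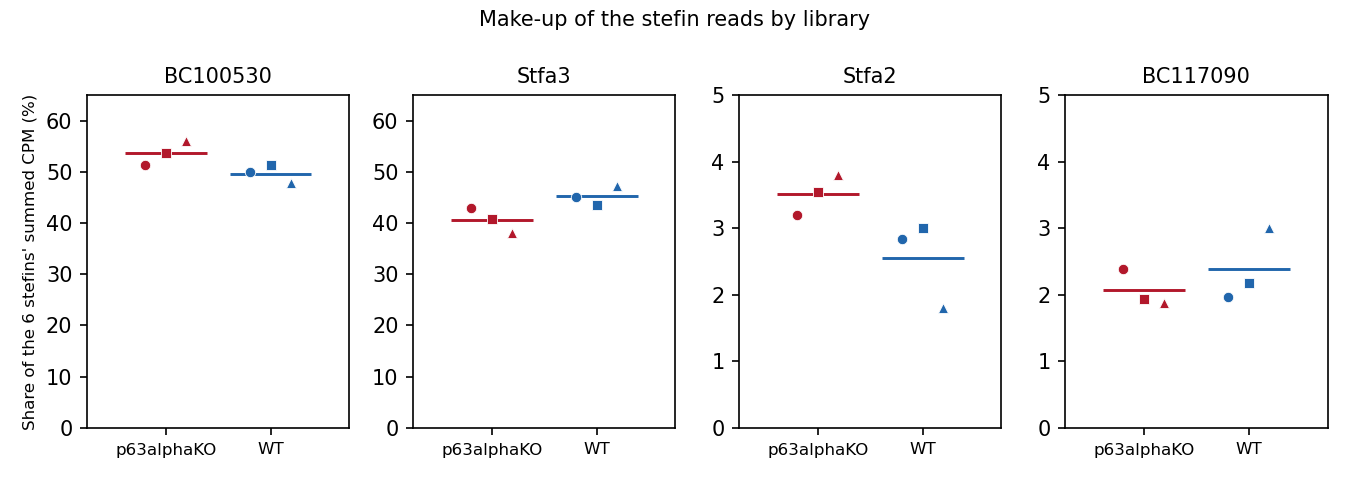
Share of the summed CPM of the 6 stefins held by BC100530, Stfa3, Stfa2 and BC117090, in percent, by library. Circles, squares and triangles are replicates 1, 2 and 3 of p63alphaKO (red) and WT (blue), and bars are means; the y axes start at 0 and differ between the 2 left and the 2 right panels. The groups do not overlap for BC100530, Stfa3 and Stfa2, and overlap for BC117090.

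Other genes of the locus and family were looked up by a list of 29 further stefin and cystatin names. Some of these are RefSeq names of genes listed under another symbol, such as Cstdc5 for BC100530, Cstdc6 for BC117090 and Csta3 for Gm5416. Of the names, 18 are in the table, of which 8 were at 0 in all libraries and 4 could be tested. None of the 4 was called; 2 estimates were positive and 2 negative, with a median of 0.02. Csta1, a stefin A copy at the low end of the locus, had 2145, 2232 and 2539.6 CPM in p63alphaKO replicates 1, 2 and 3, against 1959.6, 1960.01 and 1939 CPM in WT. All p63alphaKO libraries were above all WT libraries, at a log2 fold change of 0.24 (SE 0.14, limma adjusted p = 0.460). It was the third most abundant gene of the locus, and 0% of the 75-base windows in its last 300 bases were shared with another gene. The Csta1 transcript used has 2298 bases after the stop codon. Whether the reads of Csta1 come from that far end was not tested, so the 0% does not show that its count is free of shared reads. Some 50-base windows from the end of BC100530 did occur in a Csta1 transcript.

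Gm5416, a stefin-like gene that RefSeq lists as Csta3, had 42.9, 84.7 and 71.6 CPM in p63alphaKO replicates 1, 2 and 3, against 35.9, 43.5 and 21.7 CPM in WT. Its log2 fold change was 0.96 (SE 0.30) at a limma adjusted p of 0.114, and DESeq2 gave 1.07 with an adjusted p of 0.0346. Of the secreted cystatin C (Cst3) there were 486, 578 and 526 CPM in p63alphaKO and 765, 734 and 642 CPM in WT. Those groups did not overlap, at a log2 fold change of -0.43 (SE 0.15, limma adjusted p = 0.182). Stefin B (Cstb), the widely expressed intracellular stefin, averaged 229 ± 16.1 CPM in p63alphaKO and 269.5 ± 85.2 CPM in WT (limma adjusted p = 0.714).

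The proteases that these inhibitors act on were far less abundant as mRNA than the stefins. The list held 11 cysteine proteases, papain-like cathepsins and legumain, 5 of which could be tested; none was called, 4 estimates were positive and 1 negative, and their median was 0.30. Summed over the list there were 715 to 824 CPM in p63alphaKO and 543 to 676 CPM in WT. The stefin sum was 28.8, 31.6 and 27.8 times that in p63alphaKO, against 30.5, 39.2 and 46.8 times in WT, and the groups overlapped.

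Cathepsin H (Ctsh), an aminopeptidase, had 219, 218 and 282 CPM in p63alphaKO replicates 1, 2 and 3, against 153, 157 and 171 CPM in WT. The groups did not overlap, and the log2 fold change was 0.57 (SE 0.17) with a limma adjusted p of 0.107; DESeq2 gave 0.69 with an adjusted p of 0.0274. Cathepsin L (Ctsl), a target of cystatin 6, had 208, 198 and 237 CPM in p63alphaKO, against 205, 156 and 93.2 CPM in WT. Its log2 fold change of 0.56 (SE 0.24, limma adjusted p = 0.269) became 0.25 without WT replicate 3. For every 100 reads of Ctsl there were 64.4, 56.1 and 46.1 reads of Cst6 in p63alphaKO, against 98.5, 73.3 and 94.6 in WT. These did not overlap, with no test and no background over other ratios.

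Cathepsin B (Ctsb) averaged 137 ± 7.87 CPM in p63alphaKO and 126 ± 13.9 CPM in WT (limma adjusted p = 0.811). Cathepsin C (Ctsc), the activator of granule serine proteases, averaged 133 ± 10.3 CPM in p63alphaKO and 143 ± 7.13 CPM in WT (limma adjusted p = 0.826). Legumain (Lgmn), the other target of cystatin 6, was low, with 5.93, 4.08 and 10.1 CPM in p63alphaKO and 3.90, 2.68 and 4.72 CPM in WT, and was below the level filter.

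In mouse epidermis, cystatin 6 has been placed upstream of cathepsin L, which processes transglutaminase 3 and cathepsin D. Of 9 genes of this step and of the cornified envelope, all were tested and none was called, with 5 positive and 4 negative estimates and a median of 0.04. Cathepsin D (Ctsd), an aspartic protease, averaged 922 ± 156 CPM in p63alphaKO and 753 ± 115 CPM in WT (limma adjusted p = 0.457). Transglutaminase 3 (Tgm3) averaged 243.5 ± 15.7 CPM in p63alphaKO and 254 ± 25.6 CPM in WT, and transglutaminase 1 (Tgm1) 70.3 ± 5.99 CPM in p63alphaKO and 55.2 ± 13.5 CPM in WT. Asprv1, a retroviral-like aspartic protease that cuts profilaggrin, averaged 8913 ± 1404 CPM in p63alphaKO and 6084 ± 1042 CPM in WT; its groups did not overlap, at a log2 fold change of 0.55 (SE 0.18, limma adjusted p = 0.123). Loricrin (Lor), the main protein of the envelope, averaged 13723 ± 2484 CPM in p63alphaKO and 11743 ± 315 CPM in WT (limma adjusted p = 0.590). Its groups did not overlap either, the nearest libraries being 12114.5 CPM in p63alphaKO replicate 2 and 12086.6 CPM in WT replicate 1. Profilaggrin (Flg) averaged 19642 ± 3383 CPM in p63alphaKO and 20556 ± 4334 CPM in WT, and caspase 14 (Casp14) 1106 ± 111 CPM in p63alphaKO and 1190.3 ± 192 CPM in WT.

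The genes whose profile over the 6 libraries was most like that of Stfa3 were found by the root mean square difference of log2(CPM + 1) values, each centred on its own mean, among 3004 genes that averaged 50 CPM or more. They were Ybx1 (0.053), which encodes a cold-shock-domain RNA-binding protein, Rfwd2 (0.055), a ubiquitin ligase, and Myd88 (0.059), an adaptor of interleukin-1 and Toll-like receptors, where the median candidate was at 0.242. Within the cluster, Stfa3 was at 0.173 from BC117090, 0.174 from BC100530 and 0.439 from Stfa2. A flat profile would be at 0.157 from Stfa3, nearer than BC117090, BC100530 and Stfa2 but farther than Ybx1, Rfwd2 and Myd88. From Cst6 it would be at 0.367. The genes nearest to Cst6 were Btg2 (0.135), an antiproliferative factor, Ctnnd1 (0.136), the p120 catenin of adherens junctions, and Sdf2 (0.147), a protein of the endoplasmic reticulum, where the median candidate was at 0.454. These are descriptions over 6 libraries, in which genes of a library share its depth and genotype.

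Marker genes gave the setting of these values. Stefin A genes are also made by mouse neutrophils. Of 14 neutrophil markers 0 reached the level filter. Their summed level was 0.89 to 2.91 CPM in p63alphaKO and 1.26 to 1.95 CPM in WT, and Ly6g, Elane, Mpo, Ltf, Mmp8, Csf3r and Cebpe were at 0 in all libraries. Which cells the stefin reads came from was not tested. The 12 granular keratinocyte markers, such as Flg and Lor, summed to 54436 to 70206 CPM in p63alphaKO and 50336 to 56683 CPM in WT, with 0 called and a median log2 fold change of 0.20. Spinous markers, led by Krt10 and Krt1, summed to 62043 to 77780.1 CPM in p63alphaKO and 65566 to 81609 CPM in WT. Krt77 was called higher, while the other 4 estimates were negative and none of them was called (median of the list -0.10). Basal markers, led by Krt14 and Krt5, summed to 4383 to 5461 CPM in p63alphaKO and 3279 to 5996 CPM in WT. Krt15 was called lower, while the other 5 estimates were positive and none of them was called (median of the list 0.34). Markers of other tissues moved with genotype. Of 7 tested fibroblast markers 6 (Col1a1, Col1a2, Col3a1, Dcn, Lum, Fbn1) were called lower, with sums of 290 to 598 CPM in p63alphaKO and 2073 to 4733 CPM in WT, and 4 of 6 muscle markers (Ttn, Tnnc2, Acta1, Neb) were called lower, with 40.4 to 76.6 CPM in p63alphaKO and 328 to 2033 CPM in WT. Of 4 tested erythroid markers 3 (Hbb-bs, Hbb-bt, Hba-a2) were called lower, with 559 to 1766 CPM in p63alphaKO and 1903 to 3440.2 CPM in WT, and the mast cell gene Cpa3 was called lower among other leukocyte markers, whose sums were 34.9 to 45.7 CPM in p63alphaKO and 59.4 to 119 CPM in WT. Without the mast cell genes Cpa3, Cma1 and Mcpt4, a choice made after their values were seen, the sums overlapped. They were 34.9 to 40.2 CPM in p63alphaKO and 27.7 to 46.3 CPM in WT. Single genes in these sums differed in opposite directions, without overlap between groups. Itgam had 10.77 to 14.96 CPM in p63alphaKO against 3.13 to 6.23 in WT, and Cd74 3.28 to 4.95 against 0.94 to 1.17. Ptprc had 0 to 0.85 CPM in p63alphaKO against 3.12 to 6.61 in WT, and Tyrobp 0 to 1.69 against 1.95 to 4.02. The other genes left in the sums overlapped. None of the genes left in the sums reached the level filter, so none was tested. The share of genes without overlap was computed over tested genes only, so these have no background. Values of Cd74 in WT, and of Ptprc and Tyrobp in p63alphaKO, reach down to or below the limit of 3 reads (0.67 to 1.17 CPM). These single genes were picked out after their values were seen. Of 7 tested hair follicle markers Plet1 was higher and Krt25 and Krt71 lower, with sums of 1443 to 1605 CPM in p63alphaKO and 859 to 1246 CPM in WT. Melanocyte markers, with Dct and Pmel tested and not called, summed to 303 to 438 CPM in p63alphaKO and 174 to 293 CPM in WT, and endothelial markers, none of them tested, to 2.39 to 4.95 CPM in p63alphaKO and 5.97 to 35.5 CPM in WT. The calls of Plet1, Krt25, Fbn1, Ttn, Tnnc2, Neb and the 3 globin genes were lost when at least 1 of the libraries was left out, at limma adjusted p-values of 0.0632 to 0.218 in those fits. Under the other alternatives the call of Plet1 held in 5 of 10, of Fbn1 in 3 of 9, of Tnnc2 in 7 of 10, of Neb in 9 of 10, of Hbb-bs in 4 of 10, of Hbb-bt in 6 of 10 and of Hba-a2 in 3 of 10. The other calls named here, apart from Trp63, held without any single library. The part of these shifts in the stefin and cystatin values was not tested. Trp63 itself had 143, 146 and 136.0 CPM in p63alphaKO and 63.9, 71.7 and 87.2 CPM in WT (limma adjusted p = 0.0192, a call lost without any single p63alphaKO library); counts per gene do not tell its isoforms apart.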

How the data were processed

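The 6 libraries (3 p63alphaKO, 3 WT) were grouped by their titles. The submitters' processing notes name STAR, HTSeq and the build mm10, with no versions or counting settings. The deposited values are CPM, which the authors had scaled to library totals, for 30386 genes, of which 14023 were at 0 in all libraries. Of the CPM values, 100% were whole multiples of the worth of 1 read within 0.0055 CPM, which gave the reads per library; 3 reads correspond to 0.67 to 1.17 CPM, a limit that covers counting error only, since no molecular identifiers are mentioned. Labels and design text disagree on the RNA kit.

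The 7464 genes that averaged 10 CPM or more were tested with limma-trend 3.58.1 in R 4.3.3 on log2(CPM + 1), two-sided, with genotype as the only term and Benjamini-Hochberg adjustment; fold changes on this scale understate the change of low genes. Alternatives were pseudocounts of 0.5 and 5, no filter or minimum means of 1 and 50 CPM, TMM and upper-quartile factors, edgeR 4.0.16 and DESeq2 1.42.0 on recovered reads, a replicate block, and each library left out. The fits were also run on simulated data, which does not show that changes as small as those estimated for the tested stefins and Cst6 could be called.

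Genes named were the 7 members, the called and 4 most abundant genes of each pathway list with 8 set genes, called and leading markers, the 3 nearest profiles, and Trp63. Some leukocyte markers were named in addition, after their values were seen. The members and lists were chosen with earlier results of these data known. Positions are from GENCODE M21, 1-based.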

Additional observations from a re-analysis of the deposited data

How the results depend on the processing

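Across 16 alternatives, 0 of 95 values of the 6 tested genes were called and 5 changed sign, each of them with a library left out. Leaving out 1 library moved the log2 fold change of BC100530 between -0.035 and 0.12, of Stfa1 between -0.0235 and 0.18, of Cst6 between -0.37 and 0.22, of Cstb between -0.37 and 0.048, of Casp14 between -0.22 and 0.018, and of Flg between -0.19 and 0.11. With TMM factors, edgeR and DESeq2, the sign also turned for Flg (0.022, 0.031 and 0.047) and Tgm3 (0.0235, 0.0236 and 0.038). Stfa3 stayed negative (-0.31 to -0.13) and Stfa2 positive (0.26 to 0.58) under all of them, and BC117090 stayed negative (-0.47 to -0.01). The number of called genes, 123, was 256 at a minimum mean of 1 CPM (77 higher, 179 lower), 36 at 50 CPM (12 higher, 24 lower) and 317 with DESeq2 (152 higher, 165 lower). DESeq2 called 1 gene among the other cystatins (Gm5416) and 1 among the cysteine proteases (Ctsh). edgeR called 21 higher. Leaving out 1 library gave 37 to 186 called genes, 3 to 90 higher and 34 to 96 lower. The causes were not tested. TMM moved the median of all genes from -0.09 to -0.01. Deviations of same-numbered libraries from their group means had r = -0.02, 0.07 and -0.11. With 3 libraries in each group, these values cannot settle whether the numbers pair the libraries. The replicate block called 127 genes and 0 of the stefins or Cst6. Depth limits Stfa2l1, with at most 11 reads in a library.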
